A study of Homo sapiens with 6 samples.

Results

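The genes described here are the nuclear-encoded subunits of the mitochondrial respiratory chain and ATP synthase, in U2OS 2-6-3 cells. They were chosen by symbol: every gene beginning NDUFA, NDUFB, NDUFC, NDUFS, NDUFV, UQCR, COX4 to COX8 or ATP5, together with SDHA, SDHB, SDHC, SDHD and CYC1, without the NDUFAF assembly factors. Only protein-coding RefSeq entries on the primary chromosomes were used, and a gene with several entries was represented by the one with the largest summed mean. This gave 87 genes of the 18610 obtained by the same choice of entries. The rule itself uses no measured change, but it was set with earlier results of these data known. In each of the 3 comparisons 80 of the 87 had an adjusted p-value, and the other 7 had too few reads. NDUFA2 and COX7A2 were listed here by non-coding entries alone, and the gene with the older symbol NDUFA4 is listed as COXFA4, so these 3 subunits fell outside the rule.

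U2OS is a human osteosarcoma line, and 2-6-3 is a clone of it that carries an integrated array of tet operators in front of a reporter gene, a system built to watch transcription in living cells. All 6 RNA sequencing libraries came from cells kept in white light overnight, in medium with 1 g/l glucose, and they formed 3 groups of 2. Untransfected cells received no plasmid. Mock cells received TetR-RFP and YFP, a red fluorescent tet repressor and a yellow fluorescent protein. Sample cells received the parts of a light-controlled transcription activator (CIBN-TetR and PHR-YFP-VP16) with a marker for the reporter RNA (mCherry-MCP). Both transfected groups were given a transfection reagent that the untransfected group was not, so reagent, plasmid DNA and the encoded proteins cannot be told apart in either comparison with untransfected cells. Transfection was transient, and the share of cells that took up plasmid is not given in the sources used here, so each level is a mean over cells with and without plasmid, in which fewer expressing cells and less RNA per cell cannot be told apart. The labels do not say that the 2 libraries of a group came from separate cultures, and p-values therefore reflect the spread between these libraries alone, which may be technical.

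Counts of single libraries were solved from the deposited means, and within a group the deeper library is called a and the shallower b. Reads summed over transcript entries ran from 44594507 to 54177551 in 5 libraries and came to 9579278 in sample library b. The respiratory chain genes took between 0.93% and 1.1% of the reads over all genes in each library. Osteoblast lineage markers were all listed, 3 of 7 with at least 50 reads in every library, and their sum was lower in every transfected library (27020 and 27973 normalized read counts in mock cells, 28321 and 36642 in sample cells) than in untransfected cells (40352 and 41080). The blood markers summed to between 14.3 and 22 in the untransfected and mock libraries, while the sample libraries reached 116 and 65.9, with CD3E at 0 throughout. The neuronal markers summed to 166 and 132 in untransfected cells and to between 71.4 and 102 in the transfected libraries. Endothelial markers summed to 131 and 148 in untransfected cells and to between 15.8 and 25 in the transfected libraries. Epithelial markers, keratins among them, summed to 12449 and 13501 in untransfected cells and to between 14679 and 17517 in the transfected libraries. The part of these cell type markers in the results below was not tested.

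The respiratory chain passes electrons from NADH and succinate to oxygen through complexes I to IV in the inner mitochondrial membrane. Complex I oxidises NADH, complex II oxidises succinate as part of the tricarboxylic acid cycle, complex III passes electrons from ubiquinol to cytochrome c, and complex IV reduces oxygen. The proton gradient built by complexes I, III and IV drives ATP synthase. Most subunits are coded in the nucleus, and a few are coded in mitochondrial DNA, so the complexes are assembled from products of both genomes. Nuclear respiratory factor 1 (NRF1), the ETS factor NRF2 (GABP) and YY1 are known regulators of many of these nuclear genes.

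Sequences before the start sites of 5 members are given first. They are the longest stretches without an annotated exon in the 250 bases before a RefSeq start (build GRCh38.p14, also known as hg38), written 5′ to 3′ on the gene's strand. NDUFAB1 and SDHB are shown because their transcripts rose in both transfected groups, ATP5IF1 and COX5B because theirs fell in both, and NDUFA12, with an adjusted p above 0.05 in both, because its stretch holds an NRF1 match. These genes were chosen after their values were seen. Capitals mark matches to the motifs named in the next paragraph.
NDUFAB1, chr16:23596357-23596566, minus strand: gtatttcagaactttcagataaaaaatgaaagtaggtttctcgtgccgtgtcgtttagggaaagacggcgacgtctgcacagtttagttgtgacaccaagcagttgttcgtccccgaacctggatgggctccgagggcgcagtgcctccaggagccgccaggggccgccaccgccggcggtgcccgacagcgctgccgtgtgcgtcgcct
SDHB, chr1:17054171-17054282, minus strand: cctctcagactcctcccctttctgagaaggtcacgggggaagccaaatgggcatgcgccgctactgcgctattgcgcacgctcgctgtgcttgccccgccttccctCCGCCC
ATP5IF1, chr1:28235874-28236090, plus strand: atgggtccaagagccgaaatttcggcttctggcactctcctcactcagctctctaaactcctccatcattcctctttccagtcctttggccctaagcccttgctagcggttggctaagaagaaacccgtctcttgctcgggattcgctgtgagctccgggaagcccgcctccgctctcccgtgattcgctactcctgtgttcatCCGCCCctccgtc
COX5B, chr2:97645812-97646039, plus strand: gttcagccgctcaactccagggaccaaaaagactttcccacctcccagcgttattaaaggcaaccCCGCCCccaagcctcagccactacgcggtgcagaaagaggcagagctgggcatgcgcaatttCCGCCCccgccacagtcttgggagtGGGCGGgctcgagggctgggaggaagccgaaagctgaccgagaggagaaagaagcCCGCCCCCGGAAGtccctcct
NDUFA12, chr12:95003771-95003947, minus strand: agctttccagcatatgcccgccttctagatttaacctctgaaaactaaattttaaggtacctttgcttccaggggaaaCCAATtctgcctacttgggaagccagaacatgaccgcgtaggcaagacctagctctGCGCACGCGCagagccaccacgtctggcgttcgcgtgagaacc

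Motif letters were searched on both strands in the whole RefSeq windows, from 250 bases before to 50 after the start, and a window with several motifs counts under each. The tested members had 77 windows of 65 genes. The NRF1 letters (GCGCA, then any base, then GCGC) stood in 16 of the 77 (20.8%), against 5.78% of all 35116 promoter windows and 8.77% of the 17023 windows of genes tested in mock against untransfected cells. The ETS letters CCGGAAG stood in 22 (28.6%, against 10.3% and 15%), and the YY1 letters AAGATGGCG in 10 (13%, against 1.75% and 2.95%). At least 1 of these 3 stood in 40 of the 77 windows (51.9%), against 16.1% and 23.9%. The Sp1 letters GGGCGG were in 50 windows (64.9%), against 45% and 63.3%, and CCAAT in 25 (32.5%), against 34.6% and 34.3%. The cAMP response letters TGACGTCA were in 5 (6.49%), against 1.85% and 2.56%, and the E-box letters CACGTG in 7 (9.09%), against 7.26% and 8.98%. In the stretches printed above, the ETS match of COX5B begins 37 bases before the start, directly after an Sp1 match, and the NRF1 match of NDUFA12 begins 116 bases before it. ATP5IF1 has an Sp1 match at 46 bases and SDHB at 144, and none of the 7 motifs is in the NDUFAB1 stretch. The stretches are parts of the windows. In the part not printed, SDHB also has ETS, YY1 and cAMP response letters, and ATP5IF1 has CCAAT. Of members that rose and members that fell in mock cells, NRF1 letters were in 4 of 16 and in 1 of 7 windows, ETS letters in 6 and in 1, Sp1 letters in 12 and in 4, and CCAAT in 4 and in 4. YY1 letters were in 1 and in 0 of these windows, cAMP response letters in 3 and in 0, and E-box letters in 3 and in 0. With 7 windows of members that fell, these counts were not compared by a test. A match is a run of letters and says nothing about binding in these cells.

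In mock against untransfected cells, respiratory chain transcripts moved little and in both directions. The authors' deposited table called 31 of the 80 tested members at an adjusted p under 0.05 (38.8%), 22 higher and 9 lower. Of all 14221 genes tested it called 55.8%, with 30.3% higher and 25.4% lower. The median log2 fold change of the members in the authors' deposited table was 0.04, against 0.01 over all genes, and the median size of change without regard to sign was 0.17 against 0.43. In that deposited table of the authors 76 of 80 members (95%) lay within 0.5 log2 units of no change, against 56.5% of all genes, and the members ran from -0.55 for NDUFB1 to 0.62 for NDUFAB1. The members had many reads, with a median base mean (the authors' mean normalized count over the 4 libraries) of 2698 against 764 for all genes. Among genes with a base mean of at least 500, the authors' deposited table called 29 of 76 members (38.2%) and 67.6% of all 8274 genes.

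**Figure D1:**
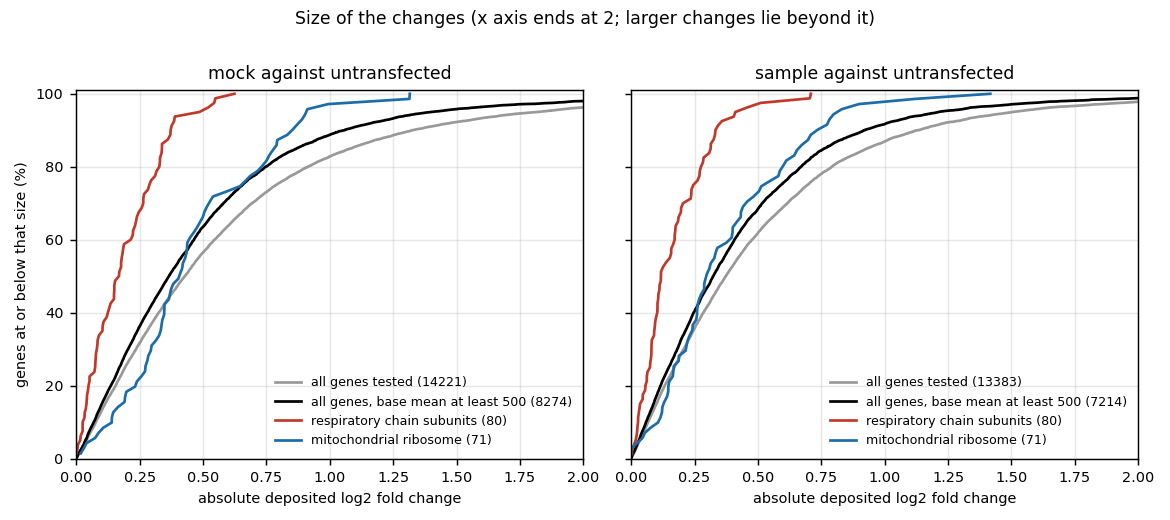
Share of genes (y axis, %) whose absolute log2 fold change in the authors' deposited tables is at or below the value on the x axis, for all tested genes (grey), all genes with a base mean of at least 500 (black), the 80 tested respiratory chain genes (red) and 71 mitochondrial ribosome genes (blue). The red curve rises first in both panels: 95% of the subunits lie within 0.5 in mock against untransfected cells and 96.2% in sample against untransfected cells.

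How the 31 calls split between higher and lower changed with single libraries. Of the 79 members with a base mean of at least 50, 72 (91.1%) stood higher in mock library b than in mock library a, against 54.4% of all 11773 such genes, with a median log2 difference (a minus b) of -0.13. The members also stood apart from all genes within the other groups, with 77.2% higher in untransfected library b than in a (55.8% of all genes) and 27.8% higher in sample library b than in a (47.4%). In limma fits to the solved counts, 8012 of 12963 genes were called with all 6 libraries, and fewer in each fit with a library left out. How those calls split by direction over all genes is not reported here. Of 79 members limma called 30 with all 6 libraries, 19 higher and 11 lower. Without mock library a limma called 23, of which 19 were higher, and without mock library b it called 17, of which 5 were higher. Without untransfected library a it called 12 (4 higher and 8 lower), and without untransfected library b 11 (7 higher and 4 lower). The single-gene directions that held through these fits are named with each complex below.

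In sample against untransfected cells the changes were also small and in both directions. The authors' deposited table called 14 of 80 members (17.5%), 7 higher and 7 lower, against 40.5% of all 13383 genes tested (22.1% higher and 18.4% lower). The median log2 fold change there was -0.05 in the authors' deposited table, the median size 0.12 against 0.37 for all genes, and 96.2% of members lay within 0.5 log2 units against 61.8%. The members ran from -0.70 for ATP5IF1 to 0.71 for ATP5F1D in the authors' deposited table. With a base mean of at least 500, the authors' deposited table called 13 of 74 members (17.6%) and 49.9% of all 7214 genes. This comparison uses the same 2 untransfected libraries as the one before it, so the values of both are given side by side below and are not independent. With all libraries limma called 6996 of 12963 genes. Over all genes it called fewer without either untransfected library or without sample library a, and more without sample library b. Limma called 19 of 79 members with all libraries (9 higher and 10 lower). The number of members that limma called, and its split by direction, also changed with the library left out.

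**Figure D2:**
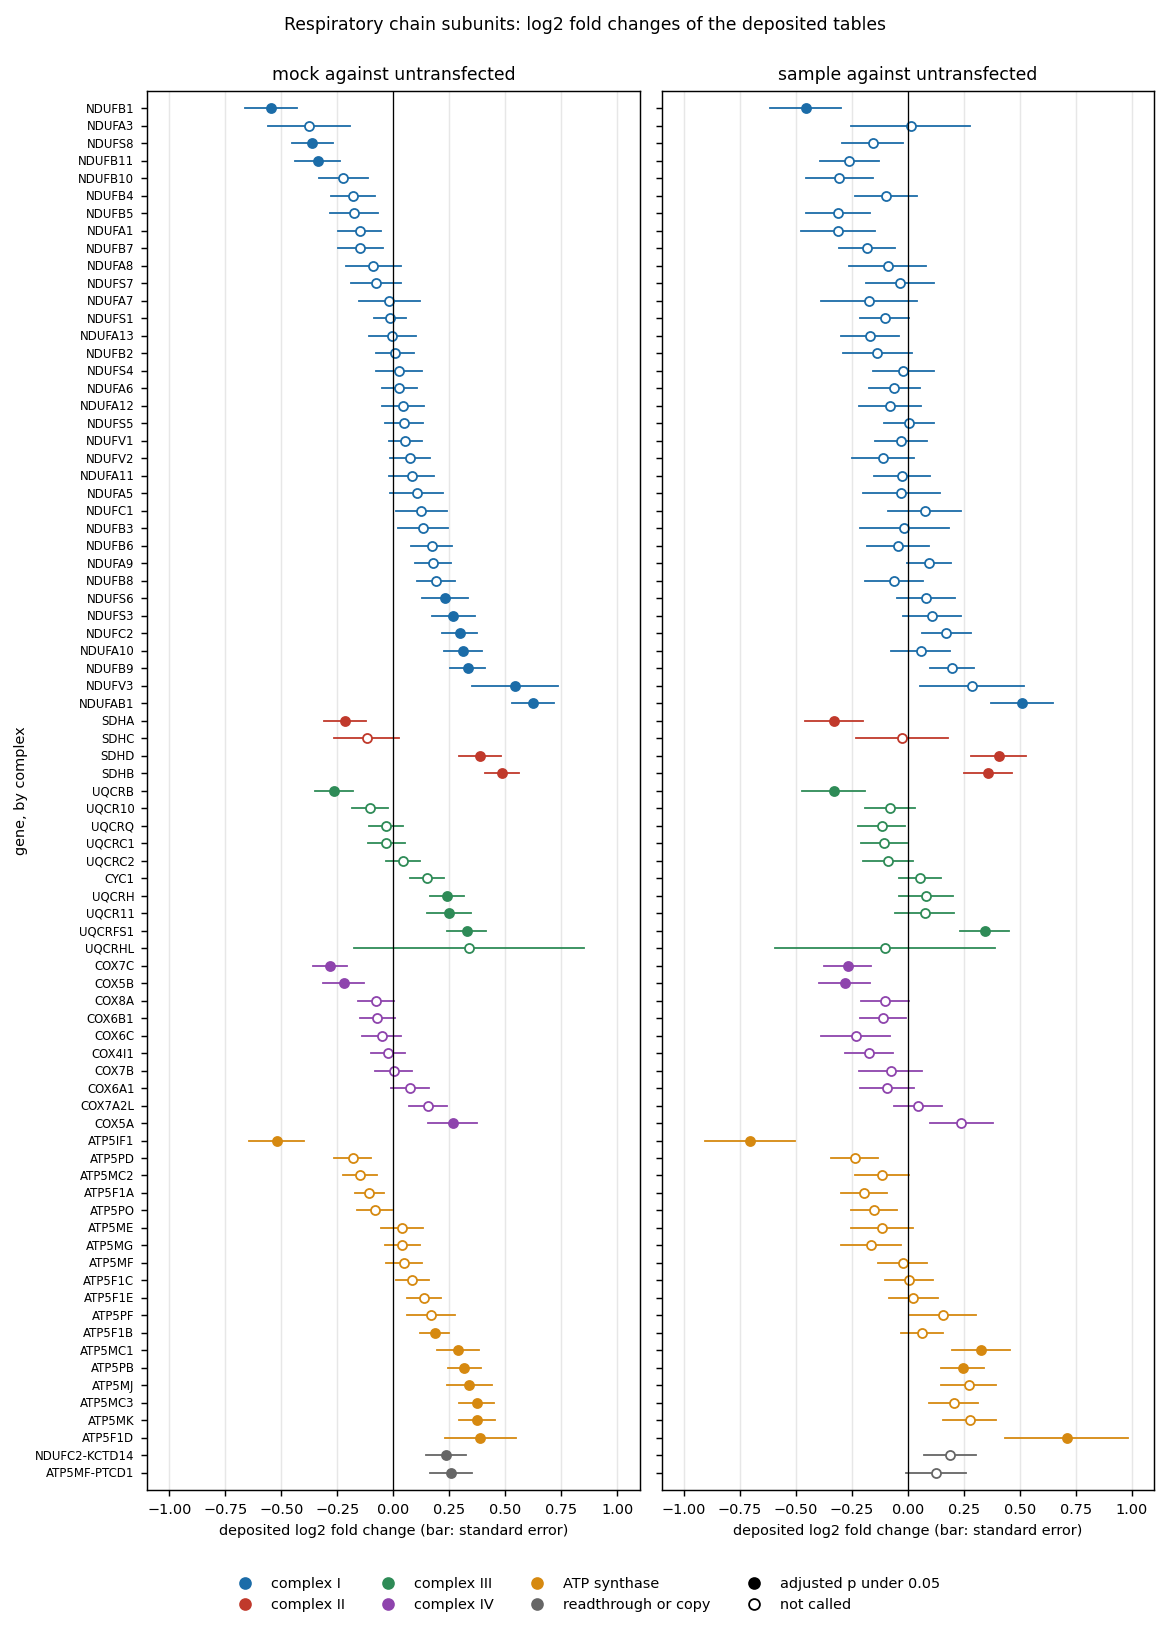
Log2 fold change (x axis) of each of 79 tested genes (y axis, ordered within its complex by the mock value) in the authors' deposited tables, with the deposited standard error as a bar and filled points for an adjusted p under 0.05. Points lie on both sides of 0 in complexes I to IV and ATP synthase, from -0.55 (NDUFB1) to 0.62 (NDUFAB1) on the left and from -0.70 (ATP5IF1) to 0.71 (ATP5F1D) on the right.

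Complex II, the smallest complex and the only member of the chain coded entirely in the nucleus, split within itself. SDHB, the iron-sulfur subunit (chr1:17018722-17054170), stood at 3258 and 3315 normalized read counts in untransfected libraries a and b, 4386 and 4720 in mock cells and 4338 and 4097 in sample cells. Here and in what follows levels are given for library a and then b, with the groups in this order. All 4 transfected libraries were above both untransfected ones. How many of all genes separate in this way was not counted. Members that were not called, such as CYC1 and ATP5F1A below, did so too. SDHB rose by 0.49 (SE 0.08, adjusted p = 7.75e-10) in mock and by 0.36 (SE 0.11, adjusted p = 0.00309) in sample cells in log2 units of the authors' deposited table, which is 1.40-fold and 1.28-fold. SDHD, a membrane anchor that holds ubiquinone and haem (chr11:112086824-112095801), stood at 1522 and 1588, then 1894 and 2130 in mock cells and 2123 and 2001 in sample cells. Its groups did not overlap either, and in the authors' deposited tables its log2 fold changes were 0.39 (SE 0.09, adjusted p = 0.000102) and 0.40 (SE 0.12, adjusted p = 0.00376). SDHA, the flavoprotein that oxidises succinate (chr5:218223-257082), went the other way, with 1826 and 2007 in untransfected cells, 1551 and 1709 in mock cells and 1574 and 1449 in sample cells. Both transfected groups lay below the untransfected libraries, and the authors' deposited table gave -0.21 (SE 0.09, adjusted p = 0.0440) and -0.33 (SE 0.13, adjusted p = 0.0335). SDHC, the other anchor, stood at 391 and 400, 361 and 356, and 351 and 441, with an adjusted p of 0.518 and 0.936 in the authors' deposited table. SDHA has near-identical pseudogene copies, so how the authors assigned its reads could matter. In limma fits SDHB was called without each library in turn. SDHD in mock cells lost its call without untransfected library a (0.31, limma adjusted p = 0.0529). SDHA lost its call in mock cells without untransfected library b (-0.19, limma adjusted p = 0.206) or mock library a (-0.18, limma adjusted p = 0.204), and in sample cells without untransfected library b (-0.26, limma adjusted p = 0.114).

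**Figure D3:**
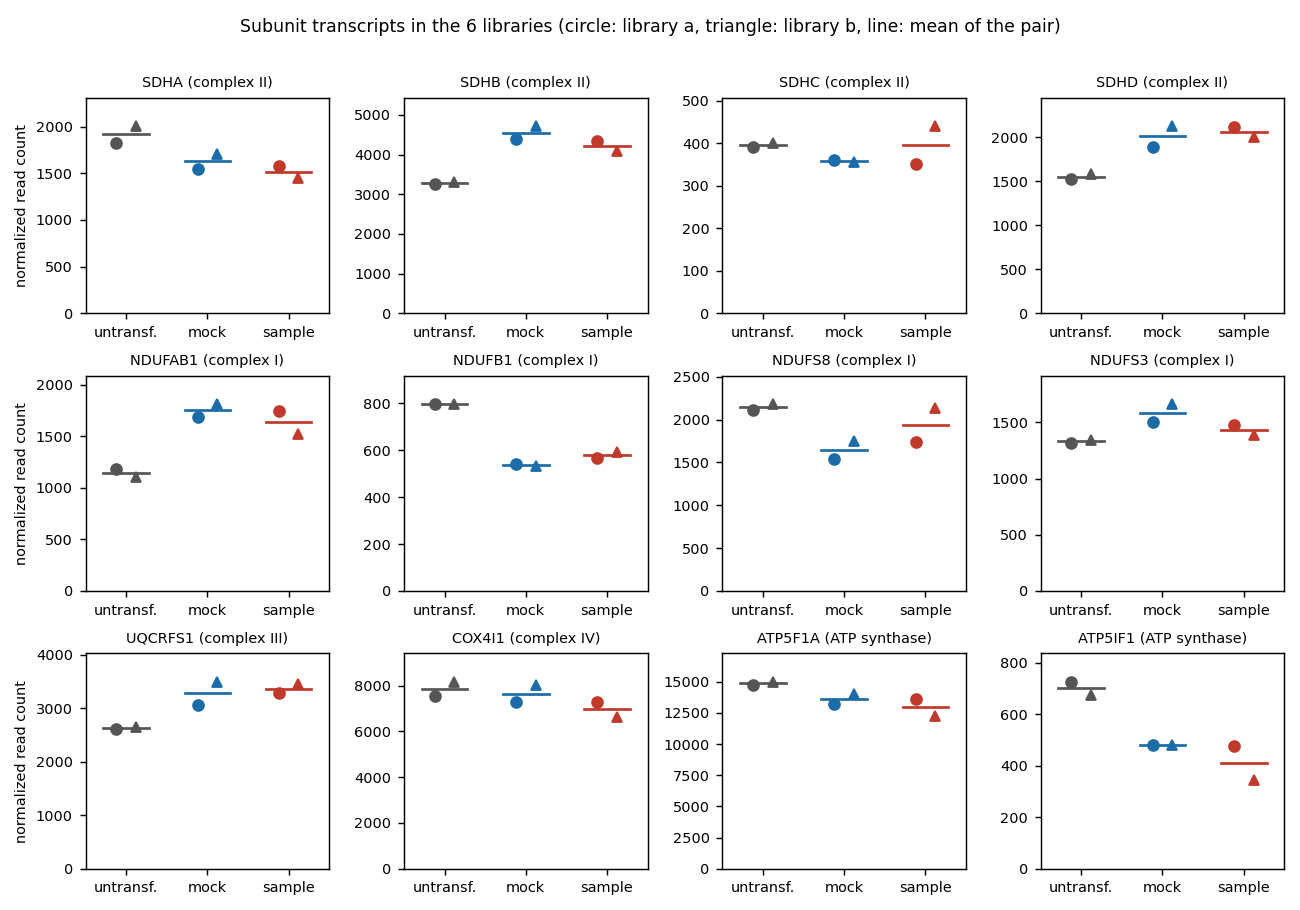
Normalized read counts (y axis, from 0) of 12 subunit genes in the 3 groups (x axis), with a circle for library a, a triangle for library b and a line at the mean of the 2. SDHB, SDHD, NDUFAB1, NDUFS3 and UQCRFS1 stand higher in all 4 transfected libraries than in both untransfected ones. SDHA, NDUFB1, ATP5F1A and ATP5IF1 stand lower in all 4.

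Ratios taken within a library do not depend on how libraries are scaled, and they show the same opposite movement. For every 100 reads of SDHA there were 178 and 165 reads of SDHB in untransfected libraries, 283 and 276 in mock cells and 276 and 283 in sample cells. SDHD gave 83.3 and 79.1 reads per 100 of SDHA, then 122 and 125 in mock cells and 135 and 138 in sample cells. In complex I, NDUFAB1 gave 148 and 139 reads per 100 of NDUFB1 in untransfected libraries, 313 and 341 in mock cells and 309 and 258 in sample cells. Each of these 3 ratios was higher in every transfected library than in both untransfected libraries. The pairs were chosen after the fold changes were seen, so the ratios are a description with no test, and a ratio of reads is not a ratio of molecules.

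Complex I, the NADH dehydrogenase at the entry of the chain, had 36 tested members. Of these the authors' deposited tables called 7 higher and 4 lower in mock cells (30.6%, against 55.8% of all genes). In sample cells 1 was called higher and 2 lower (8.33%, against 40.5% of all genes). The core subunits of complex I carry the flavin and the iron-sulfur clusters. NDUFS8, an iron-sulfur core subunit (chr11:68030617-68036647), stood at 2110 and 2184 normalized read counts in untransfected cells, 1544 and 1753 in mock cells and 1743 and 2137 in sample cells. Its mock libraries lay below the untransfected ones, while sample library b reached into their range. The authors' deposited table gave NDUFS8 -0.36 (SE 0.09, adjusted p = 0.000262) in mock and -0.16 (adjusted p = 0.394) in sample cells. NDUFS3, another core subunit, was at 1316 and 1347, 1507 and 1666, and 1474 and 1388, and was called in mock cells only at 0.27 (SE 0.09, adjusted p = 0.0107) by the authors' deposited table. The NADH-binding NDUFV1 (3545 and 3727 in untransfected cells, 3704 and 3746 in mock, 3742 and 3343 in sample libraries) and the cluster-carrying NDUFS1 (4821 and 4975, 4766 and 4806, 4769 and 4319) had adjusted p of 0.590 and 0.877 in mock cells in the authors' deposited table. Untransfected and mock libraries overlapped for NDUFV1 and lay side by side without overlap for NDUFS1.

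The supernumerary subunits of complex I surround this core and are needed for its assembly or stability. Of 29 tested, the authors' deposited tables called 6 higher and 2 lower in mock cells (27.6%, against 55.8% of all genes). In sample cells 1 was called higher and 1 lower (6.9%, against 40.5% of all genes). NDUFAB1, the mitochondrial acyl carrier protein that also serves fatty acid and lipoic acid synthesis (chr16:23581014-23596318), stood at 1184 and 1109 normalized read counts in untransfected cells, 1688 and 1817 in mock cells and 1743 and 1528 in sample cells. Every transfected library was higher, and NDUFAB1 rose by 0.62 (SE 0.09, adjusted p = 2.38e-10), or 1.54-fold, and by 0.51 (SE 0.14, adjusted p = 0.00105) in the authors' deposited tables. NDUFB1, a small subunit of the membrane arm (chr14:92116123-92121809), stood at 798 and 797 in untransfected cells, 540 and 532 in mock cells and 565 and 593 in sample cells. Every transfected library was lower, and NDUFB1 fell by 0.55 (SE 0.12, adjusted p = 8.49e-06) and by 0.46 (SE 0.16, adjusted p = 0.0137) in log2 units of the authors' deposited tables. NDUFB11, also in the membrane arm (chrX:47142216-47145210), stood at 2032 and 2290, 1557 and 1816, and 1727 and 1886. Its transfected libraries were all below the untransfected ones, with -0.34 (SE 0.10, adjusted p = 0.00205) and -0.26 (adjusted p = 0.102) in the authors' deposited tables. NDUFV3, an accessory subunit at the NADH-oxidising tip (chr21:42893268-42909663), stood at 229 and 220, 267 and 390, and 257 and 305, so the mock pair differed more from each other than mock library a did from untransfected cells. The authors' deposited table called NDUFV3 at 0.54 (SE 0.19, adjusted p = 0.0106) in mock cells and gave 0.29 (adjusted p = 0.360) in sample cells. The other 4 called members of this group, NDUFA10, NDUFB9, NDUFC2 and NDUFS6, were called in mock cells at 0.23 to 0.33 in the authors' deposited table. NDUFS6 was not called there by limma with all libraries (0.21, adjusted p = 0.0969). NDUFB10 was not called in the authors' deposited tables (adjusted p = 0.0719 and 0.0951). Limma with all libraries called NDUFB10 lower in mock (-0.25, adjusted p = 0.0301) and sample cells (-0.30, adjusted p = 0.0239).

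In limma fits that left out each library in turn, NDUFAB1 and NDUFB1 were called in all 4 fits of both comparisons. NDUFS8 lost its mock call without mock library a (-0.31, limma adjusted p = 0.0681), and it was called in sample cells without sample library b (-0.30, limma adjusted p = 0.01). NDUFB11 lost its mock call without untransfected library b (-0.29, limma adjusted p = 0.0808) or mock library a (-0.26, limma adjusted p = 0.0909). In sample cells NDUFB11 was called by limma with all libraries (-0.28, adjusted p = 0.0467), without untransfected library a (-0.38, adjusted p = 0.0445) and without sample library b (-0.32, adjusted p = 0.0137). NDUFS3 lost its call without untransfected library a (0.21, limma adjusted p = 0.166), untransfected library b (0.25, limma adjusted p = 0.108) or mock library b (0.16, limma adjusted p = 0.192). NDUFV3 lost its call without untransfected library a (0.51, limma adjusted p = 0.119), untransfected library b (0.46, limma adjusted p = 0.146) or mock library b (0.23, limma adjusted p = 0.247).

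Complex III, the cytochrome bc1 complex, had 10 tested members. Of these the authors' deposited tables called 3 higher and 1 lower in mock cells (40%, against 55.8% of all genes). In sample cells 1 was called higher and 1 lower (20%, against 40.5% of all genes). With 10 members these shares were not compared by a test. UQCRFS1, the Rieske iron-sulfur protein (chr19:29207260-29213229), stood at 2616 and 2658 normalized read counts in untransfected cells, 3053 and 3499 in mock cells and 3277 and 3446 in sample cells. The transfected libraries were all higher, and UQCRFS1 rose by 0.33 (SE 0.09, adjusted p = 0.000441) and by 0.34 (SE 0.11, adjusted p = 0.00599) in the authors' deposited tables. UQCRB, a small subunit near the ubiquinone site, stood at 1928 and 1961 in untransfected cells, 1628 and 1564 in mock cells and 1674 and 1371 in sample cells. All of its transfected libraries were lower, and UQCRB fell by 0.26 (SE 0.09, adjusted p = 0.00481) and by 0.33 (SE 0.14, adjusted p = 0.0487) in log2 units of the authors' deposited tables. UQCRH, the hinge protein, and UQCR11 were called higher in mock cells at 0.24 and 0.25 in the authors' deposited table. The catalytic cytochrome c1, CYC1, stood at 9662 and 9750 in untransfected cells, 9955 and 11338 in mock cells and 10209 and 9973 in sample cells, with an adjusted p of 0.0868 and 0.695 in the authors' deposited tables. The core protein UQCRC1 stood at 6836 and 7453, 6426 and 7375, and 6440 and 6847, so its groups overlapped. In limma fits UQCRFS1 lost its mock call without untransfected library a (0.27, adjusted p = 0.0805), untransfected library b (0.30, adjusted p = 0.0603) or mock library b (0.19, adjusted p = 0.0976), and its sample call without untransfected library a (0.31, adjusted p = 0.0702) or b (0.34, adjusted p = 0.0543). For UQCRB limma lost the mock call without untransfected library a (-0.32, adjusted p = 0.0599), untransfected library b (-0.29, adjusted p = 0.0810) or mock library b (-0.28, adjusted p = 0.0734), and the sample call without untransfected library a (-0.33, adjusted p = 0.0727) or b (-0.31, adjusted p = 0.0932).

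Complex IV, cytochrome c oxidase, had 10 tested members of 16. Of the 10 the authors' deposited tables called 1 higher and 2 lower in mock cells (30%, against 55.8% of all genes). In sample cells 0 were called higher and 2 lower (20%, against 40.5% of all genes). These shares of 10 members were not compared by a test either. COX7C, a small membrane subunit (chr5:86617967-86620766), stood at 3853 and 3955 normalized read counts in untransfected cells, 3111 and 3223 in mock cells and 3286 and 3175 in sample cells. Every transfected library was lower, and COX7C fell by 0.28 (SE 0.07, adjusted p = 0.000395) and by 0.27 (SE 0.11, adjusted p = 0.0319) in log2 units of the authors' deposited tables. COX5B, a zinc-binding subunit on the matrix side (chr2:97646058-97648194), stood at 4851 and 5357 in untransfected cells, 3967 and 4665 in mock cells and 4344 and 4010 in sample cells. These groups did not overlap either, and COX5B fell by 0.22 (SE 0.09, adjusted p = 0.0270) and by 0.28 (SE 0.11, adjusted p = 0.0355) on that scale in the authors' deposited tables. COX5A, another subunit on the matrix side (chr15:74920275-74938154), stood at 1046 and 1163, 1208 and 1420, and 1267 and 1359, above the untransfected libraries throughout. The authors' deposited table called COX5A in mock cells at 0.26 (SE 0.11, adjusted p = 0.0325) and gave 0.24 (adjusted p = 0.183) in sample cells. COX4I1, the largest nuclear-coded subunit, stood at 7562 and 8179, 7269 and 8012, and 7274 and 6646, with overlapping untransfected and mock libraries and an adjusted p of 0.815 in mock cells in the authors' deposited table. In limma fits COX7C held in mock cells and lost its sample call without untransfected library b (-0.26, adjusted p = 0.0732). COX5B lost its limma call in mock cells without untransfected library b (-0.19, adjusted p = 0.229) or mock library a (-0.14, adjusted p = 0.271), and in sample cells without untransfected library b (-0.22, adjusted p = 0.205) or sample library b (-0.24, adjusted p = 0.0549). COX5A was not called by limma with all libraries (0.24, adjusted p = 0.0575), and of the fits with a library left out it was called only without mock library a. COX4I1 in sample cells was called by limma without sample library a (-0.26, adjusted p = 0.0409).

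Several subunits of complex IV come in general and tissue-restricted forms, and these cells held the general forms. COX6A1 stood between 1915 and 2306 normalized read counts over the 6 libraries and COX6B1 between 4225 and 4864, while their heart and muscle or testis forms COX6A2 and COX6B2 did not exceed 3.25 in any library. COX4I2, a form known from lung and low oxygen, reached 0.65 in 1 library and was 0 in the other 5, and COX7A1, COX7B2 and COX8C reached at most 2.14. COX7A2L, a relative of COX7A that takes part in joining complexes III and IV, stood between 4295 and 5244, with an adjusted p of 0.114 in mock and 0.788 in sample cells in the authors' deposited tables. Outside the rule, the deposited table of the authors gave COXFA4 (older symbol NDUFA4) a log2 fold change of -0.07 in mock cells with an adjusted p of 0.557. The non-coding entry of NDUFA2 was called lower in the authors' deposited tables, by -0.40 (adjusted p = 0.000569) in mock and -0.42 (adjusted p = 0.00981) in sample cells, and that of COX7A2 was not (-0.05, adjusted p = 0.656, in mock cells). COXFA4L2, the low-oxygen relative of COXFA4, did not exceed 3.90 in any library.

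ATP synthase makes ATP in a catalytic head that is turned through a central stalk by a ring of c subunits in the membrane. Of its 18 tested members the authors' deposited tables called 7 higher and 1 lower in mock cells (44.4%, against 55.8% of all genes). In sample cells 3 were called higher and 1 lower (22.2%, against 40.5% of all genes). ATP5IF1, the inhibitor that blocks the reverse, ATP-consuming reaction (chr1:28236091-28238105), was the member called lower in both. It stood at 728 and 675 normalized read counts in untransfected cells, 480 and 481 in mock cells and 476 and 346 in sample cells. Every transfected library was below both untransfected ones, and ATP5IF1 fell by 0.52 (SE 0.12, adjusted p = 7.90e-05) and by 0.70 (SE 0.20, adjusted p = 0.00184) in log2 units of the authors' deposited tables, or to 0.697 and 0.614 of the untransfected level. In limma fits the ATP5IF1 call held without each library in turn, and without sample library b the log2 fold change was -0.56.

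In the head and stalks the catalytic subunits ATP5F1A and ATP5F1B moved little. ATP5F1B, the beta subunit (chr12:56638175-56646068), stood at 11842 and 12408 normalized read counts in untransfected cells, 13515 and 13728 in mock cells and 12630 and 12715 in sample cells. All transfected libraries were higher, by 0.19 (SE 0.06, adjusted p = 0.00947) in mock and 0.06 (adjusted p = 0.654) in sample cells in the authors' deposited tables. ATP5F1A, the alpha subunit, stood at 14707 and 15008, 13241 and 13996, and 13631 and 12241, with an adjusted p of 0.161 and 0.120 in the authors' deposited tables. ATP5F1D, the delta subunit of the central stalk (chr19:1241750-1244825), stood at 290 and 327 in untransfected cells, 369 and 435 in mock cells and 365 and 716 in sample cells. The shallow sample library b stood apart from all others, and without it the limma log2 fold change was 0.24 (adjusted p = 0.151). The authors' deposited tables called ATP5F1D at 0.39 (SE 0.16, adjusted p = 0.0281) and 0.71 (SE 0.27, adjusted p = 0.0285), while limma with all libraries did not call it (adjusted p = 0.153 and 0.101). Of the limma fits with a library left out, the fit of sample cells without sample library a called ATP5F1D, at 1.21, and none of the mock fits did. ATP5F1B was called by limma with all libraries (adjusted p = 0.0467) and in none of the 4 mock fits with a library left out (0.11 without untransfected library a, 0.19 without b, 0.17 without mock library a, 0.14 without b). ATP5F1A in sample cells was called without sample library a (-0.30, limma adjusted p = 0.0142). ATP5PB, of the stalk that holds the head still, was called higher in both of the authors' deposited tables, at 0.32 in mock and 0.25 in sample cells. ATP5PD, also of the head and stalks, was not called in those tables (adjusted p = 0.0550 and 0.0591). Limma with all libraries called ATP5PD lower in mock (-0.205, adjusted p = 0.0454) and sample cells (-0.24, adjusted p = 0.0382).

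In the membrane part the authors' deposited table called 4 of 8 members higher and 0 lower in mock cells (50%). Of all genes it called 55.8%, with 30.3% higher. With 8 members these shares were not compared by a test. The 4 stood at 0.29 to 0.37 log2 units. They were ATP5MC1 and ATP5MC3, which along with ATP5MC2 code for the same mature c subunit, and the small subunits ATP5MJ and ATP5MK. ATP5MC1 stood at 1285 and 1372 normalized read counts in untransfected cells, 1561 and 1649 in mock cells and 1695 and 1643 in sample cells. ATP5MC3 stood at 3048 and 3015, 3709 and 4050, and 3604 and 3380, and ATP5MC2 at 3859 and 3958, 3396 and 3568, and 3309 and 3936. The transfected libraries of ATP5MC1 and ATP5MC3 were all above the untransfected ones, and those of ATP5MC2 were below or within them, with a log2 fold change of -0.15 in mock cells that was not called in the authors' deposited table. Of the 8, ATP5MC1 was the member called in sample cells, at 0.33 (SE 0.13, adjusted p = 0.0315) by the authors' deposited table. Limma with all libraries called ATP5MC1 in sample cells and also ATP5MC3 (0.22, adjusted p = 0.0406), ATP5MJ (0.29, adjusted p = 0.0349) and ATP5MK (0.29, adjusted p = 0.01), 4 of the 8.

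The 2 readthrough members, NDUFC2-KCTD14 and ATP5MF-PTCD1, were called higher in mock cells at 0.24 and 0.26 in the authors' deposited table, and they share reads with NDUFC2 and ATP5MF, so their levels are uncertain. UQCRHL, a copy of UQCRH, had 4.12 to 13.9 normalized read counts, and ATP5MGL did not exceed 2.78. For 22 of the 87 members another annotated gene overlaps, among them WDR77 for ATP5PB, TAF5 for ATP5MK and KBTBD4 for NDUFS3. The kit marks strand, but whether the counting used it is not given in the sources used here, so reads of such neighbours may be included.

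Taking each complex by library, the median member was within 0.24 log2 units of its untransfected mean in every library. Over the 80 tested members the median log2 ratio to the untransfected mean was -0.02 and 0.02 in the untransfected libraries a and b, -0.01 and 0.08 in mock cells and 0.01 and -0.07 in sample cells. For complex IV it was -0.08 in mock library a, -0.0015 in mock library b, -0.08 in sample library a and -0.20 in sample library b. For ATP synthase it was 0.05 and 0.14 in mock cells and 0.04 and 0.03 in sample cells, and for complex I -0.04 and 0.05 in mock cells and 0.01 and -0.11 in sample cells. For complex I the 2 mock libraries lay on opposite sides of 0, and so did the 2 sample libraries.

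Between sample and mock cells, which asks whether the activator plasmids differ from the control plasmids, the authors' deposited table called 0 of 80 members, against 0.076% of all 13158 genes (10 genes). At an unadjusted p under 0.05 the authors' deposited table had 0 members and 281 genes, and its log2 fold changes, which are strongly shrunk toward 0, ran from -0.18 for NDUFB8 to 0.17 for NDUFA3 among members. Of the 80 members 64 were below 0 in the authors' deposited table (median -0.05), against 6792 of 13158 genes (median -0.0032), and this difference was not tested. The median of the members in limma fits with a library left out ran from -0.1185 without mock library a to 0.002 without mock library b. Limma on the solved counts, without that shrinkage, called 0 of 79 members, with 2 at an unadjusted p under 0.05. Its log2 fold changes ran from -0.25 for NDUFA7 to 0.25 for NDUFA3, with a median standard error of 0.09, and 79 of 79 were within 0.5. NDUFA7 stood at 416 and 455 normalized read counts in mock cells and 337 and 469 in sample cells, and NDUFA3 at 187 and 188 in mock cells and 203 and 317 in sample cells. Both had a sample pair wider than the gap to the mock libraries. Without sample library a, which leaves the shallow library b alone, limma called ATP5F1D (0.85, adjusted p = 0.00587) and NDUFA3 (0.76, adjusted p = 0.0466), with 8.04% of all genes called. In fits without mock library a, without mock library b and without sample library b limma called 0 members. A p above the threshold does not show that the groups were alike, and changes below a few standard errors could not be seen here.

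Other genes that respiration depends on were taken as lists by function, drawn up with results of these data known. In mock cells the share called in the authors' deposited table was above the 38.8% of the subunits in 4 of these 5 lists and 38.5% in the fifth. Against the share of all genes, 55.8% in mock and 40.5% in sample cells in the authors' deposited tables, the regulators, the mitochondrial ribosome and the tricarboxylic acid cycle were above it in both comparisons. Assembly factors were near it in mock cells and below it in sample cells, and mobile carriers were below it in both. Among genes with a base mean of at least 500 the share of all genes was higher, at 67.6% in mock and 49.9% in sample cells. In sample cells the mitochondrial ribosome (49.3%) and the tricarboxylic acid cycle (47.6%) were not above that share. The lists were not cut at that base mean, and these differences were not tested. Among genes that regulate mitochondrial gene expression, 14 of 20 were called higher and 1 lower in mock cells (75%, median log2 fold change 0.61), and 11 higher and 0 lower in sample cells (55%, median 0.40), in the authors' deposited tables. PPARGC1B, a coactivator of genes for oxidative metabolism, stood at 82.5 and 80.5 normalized read counts in untransfected cells, 328 and 285 in mock cells and 248 and 325 in sample cells, and rose by 1.86 (SE 0.20, adjusted p = 3.29e-19) and by 1.64 (SE 0.27, adjusted p = 1.75e-08) in the authors' deposited tables. TWNK, the helicase of mitochondrial DNA, stood at 326 and 306, 875 and 913, and 814 and 815. TFB2M, an initiation factor of mitochondrial transcription, stood at 550 and 503, 1368 and 1504, and 1405 and 1066. All 3 were well above untransfected levels in every transfected library. The deposited tables of the authors gave TWNK 1.5 (SE 0.12) and 1.33 (SE 0.17) and TFB2M 1.45 (SE 0.11) and 1.21 (SE 0.18), all called. PPARGC1A, the relative of PPARGC1B and the member called lower in mock cells, was at 49.4 and 39.2 in untransfected cells, 14.9 and 17.6 in mock cells and 22.7 and 32.9 in sample cells, with -1.18 (SE 0.41, adjusted p = 0.00939) and -0.53 (adjusted p = 0.379) in the authors' deposited tables. The transcripts of NRF1 (520 and 550, 527 and 543, 530 and 506) and of GABPA (941 and 985, 898 and 784, 821 and 667), the factors behind 2 of the motifs above, were not called in the authors' deposited tables, with 0.02 and -0.04 for NRF1 and -0.17 and -0.34 for GABPA. YY1, whose letters were also searched above, and GABPB1 are in the same list, and their values are not given here. NRF1 and GABPA therefore do not stand for all factors behind the motifs. PPARGC1A, NRF1 and GABPA were named after their values were seen.

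The mitochondrial ribosome translates the subunits coded in mitochondrial DNA. Of its 71 tested genes the authors' deposited tables called 53 higher and 1 lower in mock cells (76.1%, median 0.40) and 34 higher and 1 lower in sample cells (49.3%, median 0.29). MRPS2 stood at 526 and 589 normalized read counts in untransfected cells, 1258 and 1519 in mock cells and 1253 and 1886 in sample cells. MRPL15 stood at 770 and 763, 1741 and 2063, and 1680 and 1701, and MRPS30 at 1675 and 1710, 3097 and 3600, and 3207 and 3154. Every transfected library was higher than both untransfected ones for these 3 ribosomal genes. The deposited tables of the authors gave MRPS2 1.32 (SE 0.12) and 1.42 (SE 0.20), MRPL15 1.31 (SE 0.11) and 1.12 (SE 0.13), and MRPS30 0.99 (SE 0.09) and 0.90 (SE 0.11), all called. Of the 13 subunits coded in mitochondrial DNA 0 were among the entries analysed here.

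Assembly factors, which build the complexes and are not part of them, were called higher in 24 and lower in 4 of 48 in mock cells (58.3%, against 55.8% of all genes, median 0.26) and higher in 14 and lower in 3 in sample cells (35.4%, against 40.5% of all genes, median 0.13) in the authors' deposited tables. NDUFAF4, for complex I, stood at 388 and 395 normalized read counts in untransfected cells, 917 and 934 in mock cells and 975 and 848 in sample cells. NDUFAF2, also for complex I, stood at 455 and 486, 871 and 977, and 809 and 684, and COA7, for complex IV, at 1148 and 1148, 2076 and 2162, and 1994 and 1828. All transfected libraries were higher for each. The authors' deposited table had NDUFAF4 at a log2 fold change of 1.24 (SE 0.12) in mock cells, NDUFAF2 at 0.98 (SE 0.12) and COA7 at 0.90 (SE 0.09). In sample cells the values in the authors' deposited table were 1.20 (SE 0.17), 0.66 (SE 0.18) and 0.73 (SE 0.13), and all 6 were called.

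Mobile carriers shuttle electrons between the complexes, and of the 13 genes for cytochrome c, ubiquinone synthesis and haem attachment the authors' deposited tables called 4 higher and 1 lower in mock cells (38.5%) and 3 higher and 1 lower in sample cells (30.8%). CYCS, cytochrome c itself, stood at 3535 and 3715 normalized read counts in untransfected cells, 6217 and 6725 in mock cells and 6139 and 5526 in sample cells. It rose by 0.85 (SE 0.08, adjusted p = 2.33e-28) and by 0.68 (SE 0.11, adjusted p = 9.93e-09) in the authors' deposited tables, and all its transfected libraries were higher. PDSS1, which makes the ubiquinone side chain, stood at 306 and 311, 635 and 676, and 648 and 552, and COQ8A, of the ubiquinone pathway, at 370 and 336, 630 and 633, and 645 and 556. The deposited tables of the authors gave 1.09 (SE 0.13) and 0.94 (SE 0.19) for PDSS1 and 0.84 (SE 0.13) and 0.75 (SE 0.19) for COQ8A, all called.

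In the tricarboxylic acid cycle and pyruvate oxidation, which feed the chain and share complex II with it, 10 of 21 genes were called higher and 5 lower in mock cells (71.4%, against 55.8% of all genes, median 0.19), and 6 higher and 4 lower in sample cells (47.6%, against 40.5%, median 0.05), in the authors' deposited tables. IDH2, the NADP-dependent isocitrate dehydrogenase of mitochondria, stood at 743 and 860 normalized read counts in untransfected cells, 284 and 261 in mock cells and 297 and 243 in sample cells. IDH2 fell in both, with -1.51 (SE 0.14, adjusted p = 1.13e-26) and -1.47 (SE 0.20, adjusted p = 1.69e-12) in log2 units of the authors' deposited tables. PDK2 and PDK3 are kinases that switch off pyruvate dehydrogenase. PDK2 stood at 515 and 549, 182 and 201, and 248 and 313, and PDK3 at 505 and 629, 266 and 245, and 268 and 358. All 3 were lower in every transfected library, and the authors' deposited tables gave -1.43 (SE 0.15) and -0.92 (SE 0.21) for PDK2 and -1.11 (SE 0.16) and -0.85 (SE 0.22) for PDK3, all called.

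**Figure D4:**
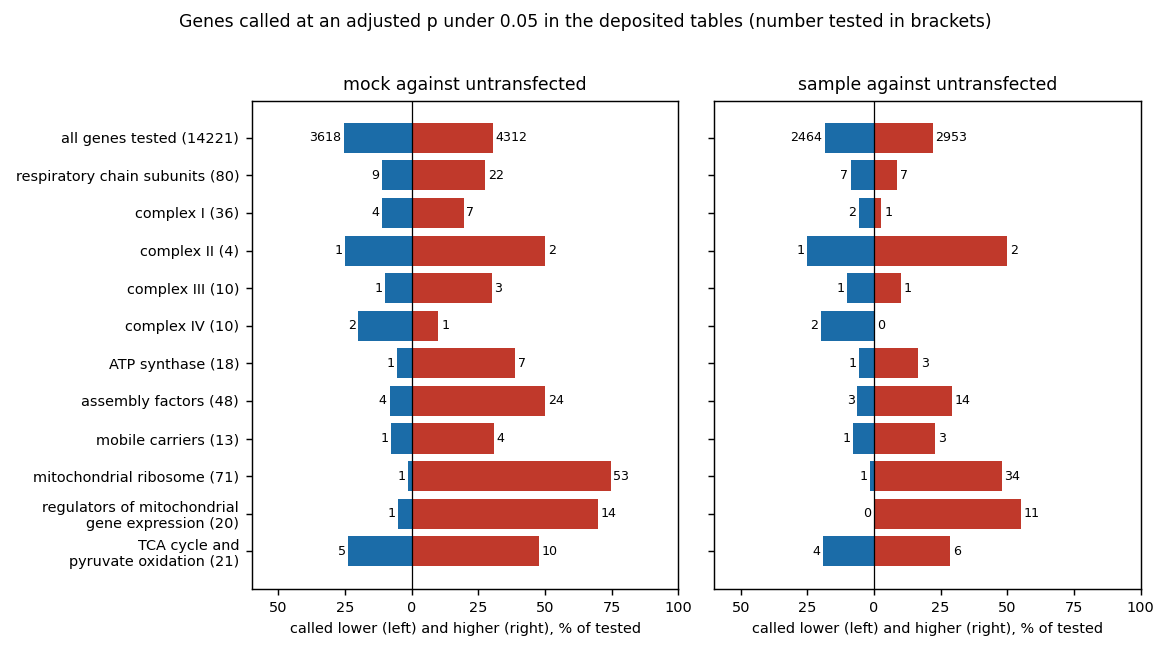
Share of tested genes (x axis, %) called lower (blue, left of 0) or higher (red, right of 0) at an adjusted p under 0.05 in the authors' deposited tables, for all genes, the respiratory chain genes, each complex and the lists of other mitochondrial genes (y axis, number tested in mock against untransfected cells in brackets, number called beside each bar). In mock cells 31 of 80 respiratory chain genes were called against 54 of 71 mitochondrial ribosome genes and 7930 of 14221 genes in all.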

How the data were processed

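RNA was isolated from U2OS 2-6-3 cells for 6 libraries, and directional libraries were made, per the labels' protocols. The submitters' processing notes name Bowtie, STAR, DESeq2 and hg38, and the sources used here give no versions, roles or counting method. Each of the 3 deposited tables compares 4 libraries as the authors fitted them. Per the file headers, a table gives for each of 40029 entries the mean signal (normalized read counts), the log2 fold change and its error, the Wald score, the p-value and the adjusted p-value. The authors' log2 fold changes between sample and mock cells behave as shrunken estimates in the deposited values, so they understate changes there. Those against untransfected cells also behave as shrunken at low counts. COX6B2, with means of 3.05 normalized read counts in untransfected and 0.46 in mock cells, was given -0.51 in the authors' deposited table. Members were called at a deposited adjusted p under 0.05.

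Lattice reduction on the 3 deposited mean signals gave the whole counts of every library, for 30527 of 30527 entries with reads (relative tolerance 1e-14). When tested on simulated data it recovered 29914 of 29914 entries. Replicate numbers cannot be tied to the libraries. Normalized read counts are these counts over median-of-ratios size factors of the 6 libraries. Symbols were found for 39720 entries (99.2%), and the 309 others held 0.0841% of reads. The solved counts were also fitted with limma-voom (limma 3.58.1, R 4.3.3), all groups in 1 fit, keeping genes at a mean of 10 normalized counts or more, with Benjamini-Hochberg adjustment over all genes. A fit that leaves a group with 1 library assumes that it varies like the other groups. Solving used Python 3.11.15, numpy 2.4.6 and mpmath 1.4.1. Promoter sequences came from RefSeq windows (69 of the 87 members had a window).

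Genes named with values were, in each comparison, the 4 called members with the largest and the 4 with the most negative log2 fold change at a base mean of at least 50, fixed core subunits of each complex, ATP5IF1 and isoform pairs, and up to 3 called genes of each list with the largest change in mock cells. All other genes given with values, COX7C and ATP5MC1 among them, were added after their values were seen. For 1 member that meets the rule no values are reported here, though it is in the counts. Members and lists were chosen with earlier results of these data known. Alternatives changed the threshold, the size of change, the filter on low counts, the centring, the entries counted, the test, the library scaling and the libraries kept.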

Additional observations from a re-analysis of the deposited data

How the results depend on the processing

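Part of the members were followed singly through centring, limma, library scaling and libraries left out, in the 2 comparisons with untransfected cells. None of these members changed to a call in the opposite direction. The genes of the lists and members such as ATP5MC1, ATP5MC3 and ATP5PB were not followed in this way. In mock against untransfected cells the count of 31 members stood at 21 to 38 with adjusted p thresholds of 0.01 and 0.1. The shares of all genes at these thresholds are not reported here, so 21 and 38 cannot be set against them. The count was 29 to 33 with a base mean minimum of 50 or 500, centring, every entry counted or no readthrough members. It was 30 with limma (8012 of 12963 genes) and 29 with TMM library sizes (8007 of 12965 genes). It fell to 4 (36.6% of all genes) when a log2 fold change of 0.5 was also required. With each library left out in turn limma called 11 to 23 members, and the median log2 fold change ran from -0.0335 to 0.0668. In sample against untransfected cells the 14 calls became 6 at a threshold of 0.01 (30.8% of all genes). They became 19 at 0.1, where the share of all genes is not reported here. They fell to 3 when a log2 fold change of 0.5 was also required (30% of all genes). They were 13 to 15 under the other filters and choices of entries. The calls were 19 with limma (6996 of 12963 genes) and 21 with TMM library sizes (7024 of 12965 genes). With each library left out they ranged from 7 to 21, and the median from -0.083 to 0.0067. In sample against mock cells 0 members were called in each alternative with all libraries. With each library left out the calls ranged from 0 to 2, and the median from -0.1185 to 0.002. Fits with fewer libraries have less power, and the share of all genes called by limma in mock against untransfected cells fell from 61.8% to between 47.4% and 50.4%. Filters on a base mean of 500 and leaving out readthrough members were chosen after seeing the data. No paired analysis was possible because the solved libraries cannot be tied to the replicate numbers of the labels, so the planned fit with a replicate block was not run. Sample library b, with 9579278 reads, limits what the comparisons with sample cells can show.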
